A study of Mus musculus with 12 samples.

Results

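The nuclear factor I (NFI) family of transcription factors has 4 members in mouse, Nfix, Nfib, Nfia and Nfic, and all 4 were found by symbol among the 31091 genes of the deposited table. They were measured by poly(A) RNA sequencing of granule cell progenitors from 3 Znhit3 conditional knockout (cKO) samples and 3 control samples, labelled WT, at postnatal day 3. The series holds 12 samples in all. The 6 samples of postnatal day 6 were not analysed here. Znhit3 encodes a zinc-finger protein known for its part in assembling box C/D small nucleolar ribonucleoproteins. The Cre driver, the floxed allele, any allele carried by the controls and the sex of the animals are stated nowhere in the labels. Nothing in the labels says whether replicates were separate animals or pools of animals. A p-value here therefore reflects only how far these libraries scatter, and that scatter may be technical.

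NFI proteins bind DNA as homodimers or heterodimers through a conserved amino-terminal domain, at palindromic sites made of the letters TTGGC and their reverse complement. In the cerebellum they are known for timing the maturation of granule neurons: Nfia, Nfib and Nfix act in postmitotic granule cells on genes of axon growth, migration and dendrite formation, and loss of Nfix in mouse disturbs the output of granule neurons. In glia Nfia and Nfib switch on astrocyte genes, and Nfix loss alters Bergmann glia. Because the cells were measured in bulk, fewer cells of a type and less RNA per cell cannot be told apart.

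The libraries held between 29119803 and 52961445 counted reads. Znhit3 had 4.03, 4.01 and 4.57 FPKM in the cKO libraries and 9.15, 8.62 and 8.58 FPKM in the control libraries (FPKM, fragments scaled to gene length and library depth), and the cKO mean was 47.8% of the control mean. Progenitor markers were present in both groups, with Atoh1, the proneural gene that specifies the granule lineage, at 35.0 ± 2.1 FPKM in cKO and 37.5 ± 3.3 FPKM in control (SD, n = 3 each). Markers of other cell types were present as well and differed between the groups, as given beside the results below. The libraries also differed in sex-linked transcripts. Xist measured 24.6, 23.7 and 23.7 FPKM in the cKO libraries and 56.4, 50.2 and 54.5 FPKM in the control libraries. The Y-linked Ddx3y measured 10.5, 12.8 and 13.8 FPKM in cKO and 5.27, 4.92 and 5.64 FPKM in control. Both were present in every library, and neither overlapped between the groups. The labels do not say whether a library pooled animals of both sexes. The part of the sex-linked difference in any result was not tested.

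Nfix was the most abundant member and the one that rose. Its level was 87.9, 85.8 and 81.6 FPKM in cKO replicates 1 to 3 and 69.2, 71.4 and 79.5 FPKM in control replicates 1 to 3. All 3 cKO libraries stood above all 3 controls, and control replicate 3 came close to the lowest cKO library. The mean was 85.1 ± 3.2 FPKM in cKO and 73.4 ± 5.4 FPKM in control (SD, n = 3 each), so the cKO mean was 116% of the control mean. On the log2(FPKM + 1) scale the difference, cKO minus control, was 0.21 ± 0.06 (SE), with a limma adjusted p of 0.042 over the 13538 genes tested. In that fit 19.1% of all genes passed the threshold of 0.05, and 13.4% passed it with a higher level in cKO. A single gene called higher is therefore not unusual for these libraries. The authors' deposited table gives Nfix a log2 fold change of 0.16 with an adjusted p of 0.019. The adjusted p of Nfix was 0.022 without control replicate 3, and 0.093, 0.12 and 0.061 without cKO replicates 1, 2 and 3. It was 0.10 without control replicate 1, 0.12 without control replicate 2, and 0.19 once a trend with gene length was removed.

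Nfic, which in mouse is best known for its role in tooth root formation, was the member with the lower values in cKO. It measured 21.0, 19.9 and 20.2 FPKM in the cKO libraries and 21.6, 22.2 and 25.1 FPKM in the control libraries. The groups did not overlap, with the gap between cKO replicate 1 and control replicate 1 the narrowest. The mean was 20.4 ± 0.58 FPKM in cKO and 23.0 ± 1.9 FPKM in control (SD, n = 3 each), or 88.7% of the control mean. The log2 difference was -0.16 ± 0.06 (SE), and its limma adjusted p of 0.094 missed the threshold. The call depended on the method. Array weights gave an adjusted p of 0.035 with 3721 of 13538 genes called, against 2590 in the main fit. Removal of the length trend gave 0.039 with 2259 genes called. With voom on reads recovered from the FPKM values it was 0.010, with 26.4% of all genes called. In the authors' deposited table Nfic had a log2 fold change of -0.23 and an adjusted p of 0.0020, where 23.1% of the genes tested by the authors were called.

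Nfib and Nfia, which lie on the same chromosome and act on overlapping sets of neural genes, showed no detectable difference. Nfib measured 36.7, 36.7 and 37.7 FPKM in cKO and 38.3, 33.6 and 38.2 FPKM in control, so the cKO values lay inside the range of the controls. Its log2 difference was 0.01 ± 0.06 (SE), with a 95% interval from -0.12 to 0.14 and a limma adjusted p of 0.89. Nfia measured 21.4, 21.3 and 21.6 FPKM in cKO and 22.3, 19.9 and 23.2 FPKM in control, again with the cKO values inside the control range. Its log2 difference was -0.02 ± 0.06 (SE), with an interval from -0.15 to 0.11 and a limma adjusted p of 0.84. For neither gene does the missed threshold show equal levels. Both intervals end short of the point estimate of Nfix (0.21), but they overlap the 95% interval of Nfix, 0.076 to 0.35. The sign of the Nfia difference turned with TPM scaling, and that of Nfib with removal of the length trend and with voom.

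**Figure D1:**
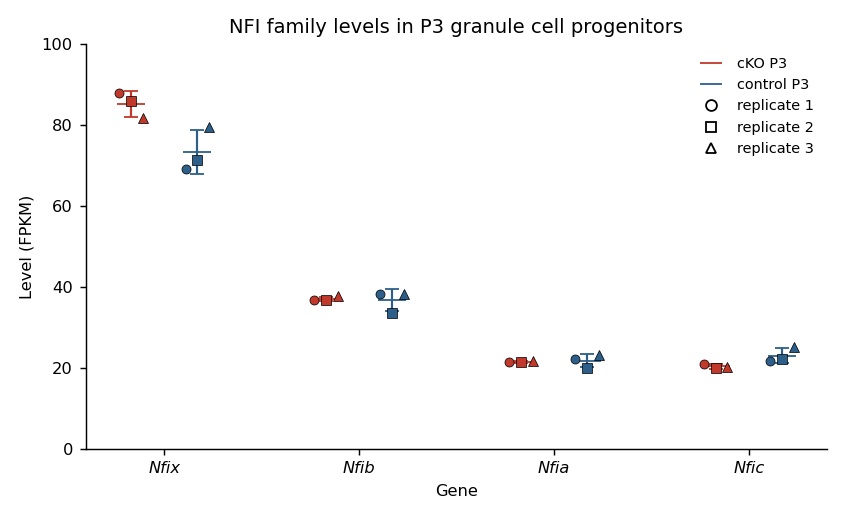
Level of each NFI gene in FPKM (vertical axis, linear from 0) in cKO (red, left) and control (blue, right) libraries at postnatal day 3. Points are single libraries with one symbol shape for each replicate, the horizontal mark is the mean and the bar is the SD over 3 libraries. Nfix stands at 81.6 to 87.9 FPKM in cKO, above 69.2 to 79.5 FPKM in control, while Nfib and Nfia overlap.

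With 3 libraries a group, the exact two-sided permutation test of a single gene cannot go below p = 0.1. Nfix and Nfic both reached that value, while Nfia gave 0.80 and Nfib gave 1. Groups that do not overlap were common in these libraries, at 40.5% of all genes tested, with all cKO libraries higher for 27.3% and lower for 13.2%. The 4 members were covered by between 3898 and 30938 reads per library, so counting alone gives an error of 0.569% to 1.60%. The spread between control libraries was larger, with a coefficient of variation of 7.34% for Nfix, 7.34% for Nfib, 7.70% for Nfia and 8.16% for Nfic. In the cKO libraries it was 3.72%, 1.56%, 0.683% and 2.85% for the same genes.

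In order of level, Nfix was followed by Nfib and then by Nfia and Nfic in both groups. Nfix and Nfib were separated from each other and from the remaining pair in every library. Nfia and Nfic did not differ beyond their spread in control, where their ranges were 19.9 to 23.2 FPKM and 21.6 to 25.1 FPKM. In cKO the Nfia range of 21.3 to 21.6 FPKM lay above the Nfic range of 19.9 to 21.0 FPKM. FPKM divides by the length of the whole gene model, 7351 bases for Nfix, 14957 for Nfib, 10891 for Nfia and 6630 for Nfic, so the order also depends on which transcript forms the cells use. Summed over the 4 members, the family came to 167, 164 and 161 FPKM in cKO and 151, 147 and 166 FPKM in control, and control replicate 3 lay within the cKO range. The share of Nfix in that sum was 51.9% ± 1.1 in cKO and 47.4% ± 1.5 in control, and that of Nfic was 12.4% ± 0.24 in cKO and 14.8% ± 0.47 in control (SD, n = 3 each). Neither share overlapped between the groups.

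A ratio of 2 members within a library is free of the scaling of that library as a whole, and the 6 possible ratios were compared. The ratio of Nfix to Nfic showed the widest separation. It was 4.18, 4.31 and 4.04 in the cKO libraries and 3.20, 3.22 and 3.16 in the control libraries. The 3 control ratios lay close together although Nfix ranged from 69.2 to 79.5 FPKM in the same libraries, since control replicate 3 was the highest for both genes. The mean ratio was 4.18 ± 0.13 in cKO and 3.20 ± 0.029 in control (SD, n = 3 each), 30.8% higher in cKO, and the log2 ratio differed by 0.38. An exact permutation test over the 6 libraries (two-sided) reached its lowest possible p of 0.1, or 0.20 after Benjamini-Hochberg adjustment over the 6 pairs. The size kept between 0.35 and 0.45 on the log2 scale under all 13 alternative settings. Settings that only rescale a library could hardly move it, since such scaling nearly cancels in a ratio. Removal of the length trend also had little to act on, because Nfix and Nfic have gene models of similar length (7351 and 6630 bases).

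The ratios of Nfix to the other members pointed the same way with more spread. Nfix to Nfia was 4.10, 4.02 and 3.78 in cKO and 3.11, 3.59 and 3.43 in control, and Nfix to Nfib was 2.40, 2.34 and 2.17 in cKO and 1.81, 2.13 and 2.08 in control. Both sets did not overlap, but the lowest cKO and the highest control ratio of Nfix to Nfib lay close together. The exact p was 0.1 for each, and 0.20 after adjustment. The log2 ratio differed by 0.23 for Nfix to Nfia and by 0.20 for Nfix to Nfib, where it was 0.13 without control replicate 1. These 3 ratios share Nfix and are not independent of each other.

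The 3 ratios without Nfix overlapped between the groups. Nfib to Nfic was 1.82 ± 0.065 in cKO and 1.60 ± 0.15 in control, and Nfia to Nfic was 1.05 ± 0.030 in cKO and 0.950 ± 0.070 in control (SD, n = 3 each), each with an exact p of 0.2 and 0.24 after adjustment. Nfib and Nfia kept a near-constant ratio, 1.73 ± 0.016 in cKO and 1.69 ± 0.035 in control (SD, n = 3 each), with an exact p of 0.3. The difference of their log2 ratio was 0.03, and ranged from 0.018 without control replicate 3 to 0.066 with quantile normalization (exact p of 0.6 and 0.1).

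**Figure D2:**
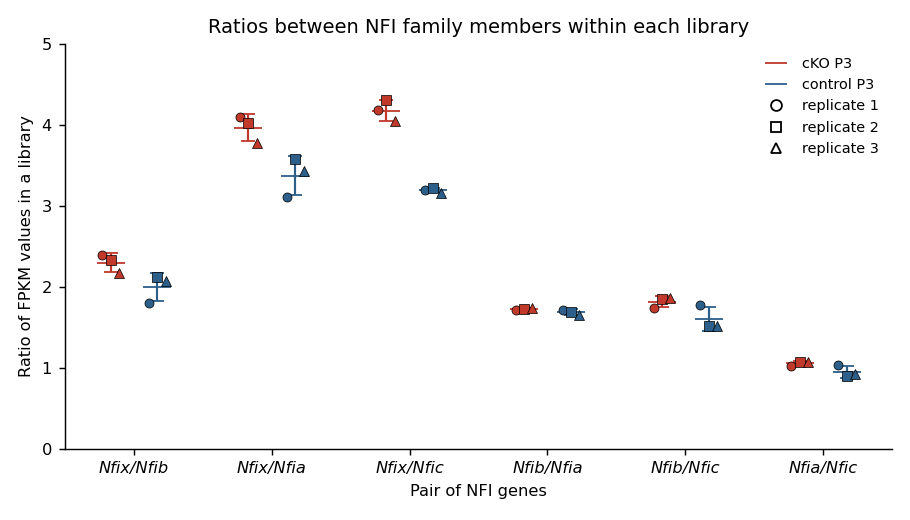
Ratio of the FPKM values of 2 NFI genes within each library (vertical axis, linear from 0) for the 6 pairs, in cKO (red, left) and control (blue, right). Points are libraries with one symbol shape for each replicate, and marks and bars are the mean and SD over 3 libraries. For Nfix to Nfic the cKO libraries sit at 4.04 to 4.31 and the control libraries at 3.16 to 3.22, and pairs without Nfix overlap.

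The differences of the members were followed through 19 alternative settings. The Nfix difference was positive in all 19 and passed the threshold in 10, with values from 0.13 to 0.29. The Nfic difference was negative in all 19 and passed in 3, with values from -0.24 to -0.10. Nfia and Nfib passed in none, with values on both sides of 0.

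**Figure D3:**
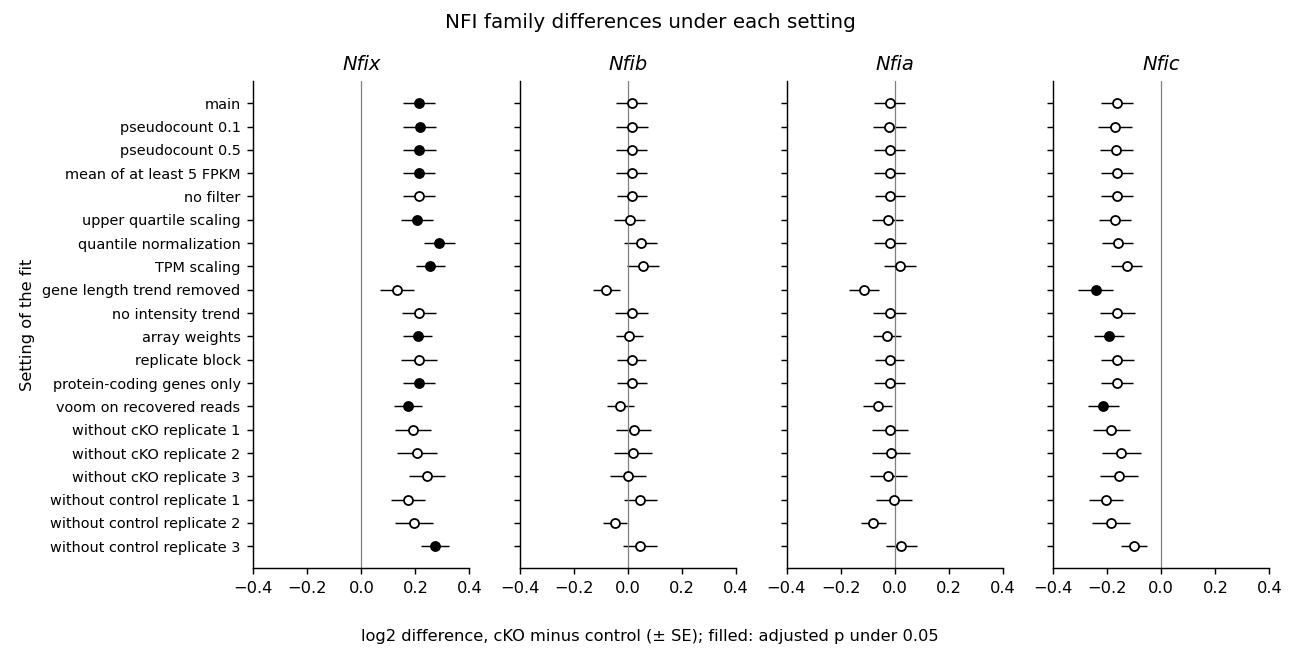
Difference of each NFI gene between cKO and control on the log2 scale (horizontal axis, cKO minus control) under each setting of the fit (vertical axis). Bars are the SE and filled points have an adjusted p under 0.05. Nfix is positive and Nfic negative under every setting shown, from 0.13 to 0.29 and from -0.24 to -0.10, while Nfib and Nfia lie around 0.

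Whether strand was used in counting is stated nowhere in the labels, so reads of genes that overlap a member cannot be told apart from its own. Lyl1, a transcription factor gene of blood and endothelial cells, lies inside the span of Nfix on the opposite strand and rose, at 4.45 FPKM in cKO and 2.67 FPKM in control (log2 difference 0.57, limma adjusted p = 0.0096). Its reads came to at most 1.62% of those of Nfix in any library. E130114P18Rik overlaps the 5′ part of Nfia by 5345 bases on the opposite strand and had up to 44.4% as many reads as Nfia, at 45.5 FPKM in cKO and 49.5 FPKM in control (limma adjusted p = 0.11). Gm11266, a long non-coding RNA opposite Nfib, had at most 8.47% as many reads as Nfib, at 23.6 FPKM in cKO and 27.7 FPKM in control (limma adjusted p = 0.12). Within Nfic, Gm16104 and Mir1191b had at most 58 and 7 reads. The table places Nfix on chromosome 8 from 85426505 to 85526973, Nfib on chromosome 4 from 82208410 to 82623987, Nfia on chromosome 4 from 97660971 to 98007111 and Nfic on chromosome 10 from 81232020 to 81291469. These positions come from the deposited table. Of 29560 genes shared with the GRCm38 reference annotation only 614 had the same start and end. The GRCm38 promoters of Nfix given below lie outside the span printed here, so the 2 sets of positions cannot be set side by side.

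The 3 genes whose profiles over the 6 libraries were most like that of Nfix were Fjx1, Col15a1 and Hepacam, out of 7977 compared. Likeness was the root mean square difference between log2(FPKM + 1) profiles, each centred on its own mean, and came to 0.0158, 0.0174 and 0.0281. The profile of Nfix itself departed from its mean by 0.126 on the same measure. Fjx1, which encodes a protein of the four-jointed family, measured 23.1 FPKM in cKO and 19.6 FPKM in control. Col15a1, a basement membrane collagen gene, measured 7.93 FPKM in cKO and 6.74 FPKM in control, and Hepacam, an adhesion molecule of astrocytes, 21.7 FPKM in cKO and 18.5 FPKM in control.

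Genes reported to be driven by NFI proteins in granule neurons were lower or not called. Of 6 such genes 4 reached a mean of 1 FPKM, and 2 of the 4 fell while none rose, beside 5.74% of all genes called lower and 13.4% called higher. The median log2 difference of the 4 was -0.14, beside 0.03 over all genes tested. This gene list and those below were chosen with earlier results of these data known, so their counts are descriptive only. Cntn2, the axonal adhesion molecule TAG-1 of newly postmitotic granule cells, measured 39.6, 40.7 and 43.3 FPKM in cKO and 48.5, 51.6 and 49.1 FPKM in control, with every cKO library below every control. It fell by 0.27 on the log2 scale, with a limma adjusted p of 0.0092. Efnb1, which encodes the guidance ligand ephrin-B1, measured 13.8, 13.4 and 13.1 FPKM in cKO and 15.4, 15.0 and 16.5 FPKM in control, again with no overlap. It fell by 0.20, with a limma adjusted p of 0.027, but missed the threshold without cKO replicate 2, cKO replicate 3, control replicate 1 or control replicate 3 (adjusted p of 0.086, 0.077, 0.052 and 0.078). Cdh2, the N-cadherin gene of migration and dendrite formation, measured 29.9 ± 1.6 FPKM in cKO and 31.6 ± 2.0 FPKM in control (SD, n = 3 each; limma adjusted p = 0.37). The glutamate receptor subunit gene Grin2c, a late gene of granule neurons, was low at 2.61 FPKM in cKO and 2.62 FPKM in control (limma adjusted p = 0.97). Nfix, the most abundant family member, had the higher mean in cKO, while Cntn2 and Efnb1 had the lower. Whether these differences are related was not tested.

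The remaining pair of these genes could not be tested at the filter used. Wnt7a, a signal for synapse formation, measured 0.929 FPKM in cKO and 0.724 FPKM in control. Gabra6, the GABA receptor subunit gene switched on in mature granule neurons and a standard NFI target there, had 0 to 6 reads per library, at no more than 0.0428 FPKM in cKO and 0.0592 FPKM in control. At these depths 3 reads of Gabra6 correspond to 0.0228 to 0.0414 FPKM, which allows for counting error alone, so no difference in Gabra6 was detectable.

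Short promoter windows show where the NFI letters stand in most of the genes just described. RefSeq promoters (GRCm38.p6, 250 bases before to 50 after a start) were matched for 3 of the 4 members, Nfix, Nfia and Nfic, and for Cntn2, Efnb1, Wnt7a, Grin2c and Gabra6. Cdh2, the remaining granule neuron target, was left out of the search. Both strands were searched for the full palindrome (TTGGC, any 5 bases, then GCCAA), for TTGGCA and for TTGGC, which overlap one another. The palindrome stood in none of these promoters and in 0.0365% of all 32851. TTGGCA stood only in that of Gabra6 and in 14.1% of all promoters, and TTGGC stood in 46.7% of all promoters. The windows are written in the direction of the gene with the matched letters in capitals, and a position counts from the start of the transcript to the first capital.
Gabra6, TTGGCA on the other strand at -50, chr11:42321105-42321134, minus strand: attcgaagtccaTGCCAAaactagccgtgg
Cntn2, TTGGC at -23, chr1:132542946-132542975, minus strand: tccggccgagcgTTGGCtgaggagccgagc
Efnb1, TTGGC on the other strand at -189, chrX:99135860-99135889, plus strand: cttttgggaagcGCCAActtccctagaact
Nfix, TTGGC at -175 of the second listed start, chr8:84775986-84776015, minus strand: ggatcttttgttTTGGCtcaccccaggcgc
Nfix, TTGGC on the other strand at -5 of the fourth listed start, chr8:84772863-84772892, minus strand: cttctgggggcaGCCAAacattggccagtc
Cntn2 and Efnb1 held a second TTGGC each, and so did the promoter of the fourth Nfix start. The third Nfix start held 1 at 29, and the first held none. The Nfia, Nfic, Wnt7a and Grin2c promoters held none. A match of these letters is a description of the window and not a binding site.

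Transcription and chromatin regulators reported to act with, above or below NFI proteins in neural cells were more often called higher than lower. Of 16 listed genes 15 were tested, 5 rose and none fell, beside 13.4% called higher and 5.74% called lower over all genes, and the median log2 difference was 0.15. Sox9, which in the embryonic spinal cord induces Nfia, measured 17.9, 19.0 and 17.7 FPKM in cKO and 14.7, 14.0 and 16.2 FPKM in control, with no overlap, and rose by a log2 difference of 0.27 (limma adjusted p = 0.021). Zbtb20, a repressor with roles in astrocyte formation, measured 2.88 FPKM in cKO and 1.99 FPKM in control (limma adjusted p = 0.0058). Rest, which represses neuronal genes in progenitors and holds back NFI occupancy in granule cells, rose to 2.96 ± 0.21 FPKM in cKO, against 2.18 ± 0.13 FPKM in control (SD, n = 3 each; limma adjusted p = 0.018). Nfatc4, a calcium-regulated factor that delays late NFI targets in granule neurons, rose to 6.01 ± 0.19 FPKM in cKO, against 4.98 ± 0.31 FPKM in control (SD, n = 3 each; limma adjusted p = 0.027). Nfatc1 measured 2.74 FPKM in cKO and 2.1 FPKM in control (limma adjusted p = 0.027).

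Etv1, which works beside NFI proteins on late genes of granule neurons, was not called at 2.01 FPKM in cKO and 2.19 FPKM in control (limma adjusted p = 0.37). Meis1, a homeobox factor of the granule lineage, measured 17.2 FPKM in cKO and 19.3 FPKM in control (limma adjusted p = 0.070), and Ezh2, a Polycomb methyltransferase gene that Nfib represses in cortex, 31.4 FPKM in cKO and 32.9 FPKM in control (limma adjusted p = 0.46). Insc, an Nfix target in cortical progenitors that orients the spindle, measured 2.16, 2.49 and 2.85 FPKM in cKO and 3.06, 4.01 and 3.14 FPKM in control, without overlap, but missed the threshold (limma adjusted p = 0.061). Regulators that were higher on average but not called included Pou3f2, a POU factor of neural progenitors, at 13.7 FPKM in cKO and 11.6 FPKM in control (limma adjusted p = 0.051). Zeb1, Hif1a and Hes1 had positive log2 differences of 0.13, 0.15 and 0.26 (limma adjusted p = 0.079, 0.082 and 0.13), and Nfatc3 and Bbx stood at 0.02 and -0.04. Of the regulators called, Zbtb20 passed in all 18 settings run for it, Rest in 14 of 18, Sox9 in 14 of 19, Nfatc4 in 10 of 19 and Nfatc1 in 9 of 18. The call of Sox9 ended without cKO replicate 2, control replicate 1 or control replicate 2, and that of Rest without cKO replicate 3 or control replicate 2. The calls of Nfatc4 and Nfatc1 ended in 5 of 6 cases of leaving out a library, and held without cKO replicate 3 for Nfatc4 and without control replicate 3 for Nfatc1. The number called higher in this list ranged from 1 to 8 over the 19 settings. It was 3 without cKO replicate 3, 2 without cKO replicate 2 or control replicate 1 and 1 without control replicate 2, and was 3 with 2 called lower once the length trend was removed.

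Glial genes reported as NFI targets were called in the upward direction alone. Of 10 genes 5 rose and none fell, beside 13.4% called higher and 5.74% lower over all genes, and the median log2 difference was 0.22, beside 0.03 over all genes. Aqp4, the water channel gene of astrocyte endfeet, measured 52.1, 48.1 and 50.4 FPKM in cKO and 35.2, 31.6 and 36.6 FPKM in control. Gfap, the astrocyte intermediate filament gene, measured 19.4, 20.2 and 20.4 FPKM in cKO and 14.1, 13.9 and 13.0 FPKM in control. For both genes the lowest cKO library was well above the highest control, with log2 differences of 0.53 and 0.52 and limma adjusted p-values of 0.0016 and 0.00072. Apcdd1 and Mmd2, which act below Nfia and Sox9 in gliogenesis, rose by log2 differences of 0.48 and 0.41 (limma adjusted p = 0.0010 and 0.0013). Slc1a3, the glial glutamate transporter gene, rose to 151 ± 4.0 FPKM in cKO, against 132 ± 3.4 FPKM in control (SD, n = 3 each; limma adjusted p = 0.020), and was called in 14 of 19 settings but not without cKO replicate 2, control replicate 2 or control replicate 3. Fabp7, the radial and Bergmann glia lipid-binding gene and one of the most abundant of the list, measured 503 ± 23 FPKM in cKO and 533 ± 18 FPKM in control (SD, n = 3 each; limma adjusted p = 0.32).

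**Figure D4:**
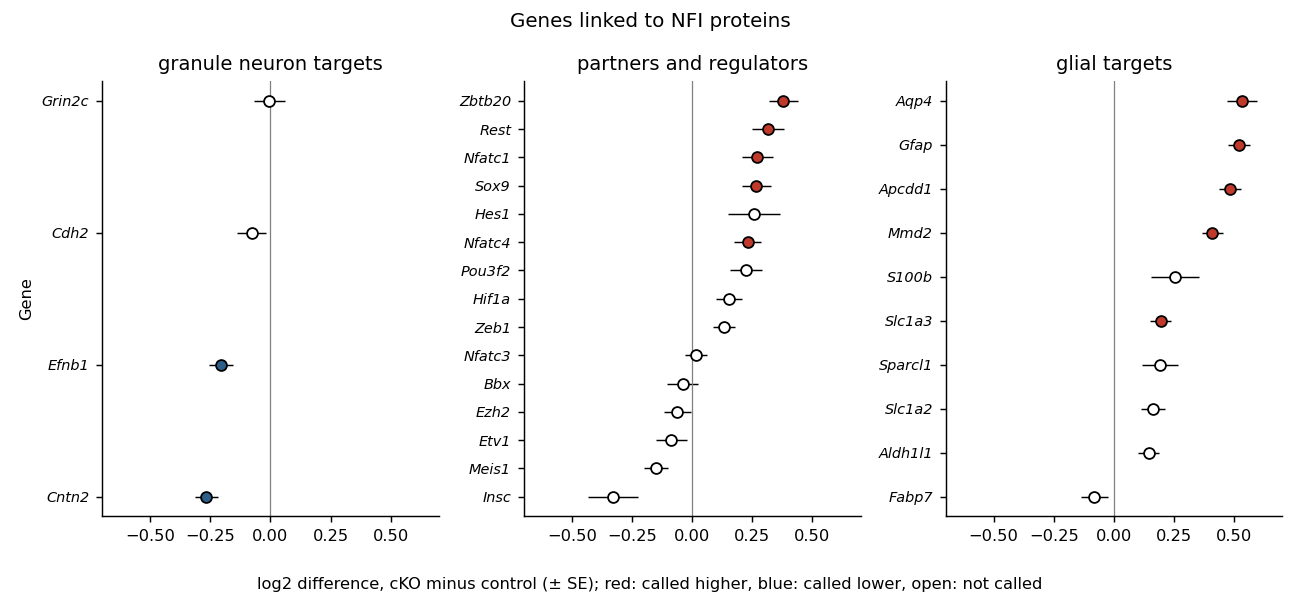
Difference between cKO and control on the log2 scale (horizontal axis, cKO minus control) for the tested genes of the 3 lists linked to NFI proteins (vertical axis). Bars are the SE, red points were called higher, blue points lower and open points not called. Cntn2 and Efnb1 are the genes called lower, and Aqp4 at 0.53 and Gfap at 0.52 are the rightmost of the glial genes.

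Markers of other cell types also differed in the same libraries. NFI levels within each of these cell types were not measured here. Over all genes 13.4% were called higher and 5.74% lower. Astroglial markers rose in 6 of 14 cases with none lower, or in 3 of 14 without cKO replicate 2. The list shares 7 genes with the glial targets, which make up 3 of the 6 calls. Its summed level was 1097 to 1131 FPKM in cKO and 1047 to 1060 FPKM in control. Fabp7, which was not called, made up much of that sum and ran the other way, at 503 FPKM in cKO and 533 FPKM in control. Of the 14 markers 13 had positive differences, and the median log2 difference was 0.22. Oligodendrocyte lineage markers rose in 7 of 9 tested cases, summing to 168 to 185 FPKM in cKO and 135 to 141 FPKM in control. Of 10 interneuron markers 8 rose and 1 fell, summing to 129 to 142 FPKM in cKO and 98.7 to 108 FPKM in control. Endothelial markers rose in 9 of 10 cases, summing to 243 to 259 FPKM in cKO and 138 to 150 FPKM in control. Pericyte and meningeal markers rose in 8 of 10 cases and microglial markers in 6 of 9, and none of either fell. Of 8 tested choroid plexus and ependymal markers 6 fell and 1 rose, with the single rise kept in 1 of 6 cases of leaving out a library. The list summed to 666 to 742 FPKM in cKO and 1377 to 1463 FPKM in control. Nearly all of that sum was Ttr, at 665 FPKM in cKO and 1370 FPKM in control. Of 7 tested Purkinje cell markers 4 rose and 1 fell, with 2 called higher without cKO replicate 1, cKO replicate 3, control replicate 2 or control replicate 3. Lhx1, which fell, and Lhx5, which rose, are also counted among the interneuron markers. Among unipolar brush and nuclear neuron markers 1 of 5 rose, and none did without cKO replicate 2. The part of these other cells in the Nfix difference, in the lower Nfic values and in the glial and regulator genes was not tested.

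Granule lineage genes were more often called lower than higher, beside 5.74% and 13.4% of all genes. Of 14 progenitor markers 4 fell (Mfap4, Barhl1, Pax6 and Sfrp1), none rose and 10 were not called, 4 of the 14 had positive differences, and the median log2 difference was -0.14, beside 0.03 over all genes. Of 16 tested genes of postmitotic granule neurons 8 fell, 2 rose (Nrxn3 and Chl1) and 6 were not called, with a median of -0.22. Stmn2, a microtubule regulator of growing axons, fell to 57.6 ± 2.2 FPKM in cKO, against 83.8 ± 1.9 FPKM in control (SD, n = 3 each), and Cbln1, a synaptic organiser, fell to 63.3 ± 0.48 FPKM in cKO, against 87.6 ± 4.0 FPKM in control (SD, n = 3 each). Their limma adjusted p-values were 0.00056 and 0.0010.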

How the data were processed

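The authors deposited 1 table for postnatal day 3, with FPKM values for 6 libraries. Columns named ZM were read as cKO because the other columns are named WT and the labels hold no other group at that day. Tools listed in the submitters' processing notes, without roles, are HISAT2 2.2.1, StringTie 2.1.6, cutadapt 1.9, DESeq2 and edgeR, with the build mm10. The deposited table also holds the authors' mean signal, log2 fold change with its standard error, test score and p-value with its adjusted value, the last matching a Benjamini-Hochberg adjustment over 16021 genes.

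For 100% of values the product of FPKM and gene length came out as a whole number of reads (tolerance 0.02), which gave the depths. Replicates differed beyond counting noise (chi-square over its degrees of freedom, 4.38 to 9.71). limma 3.58.1 (R 4.3.3) was fitted to log2(FPKM + 1) (intensity trend, no covariates, mean of at least 1 FPKM) with Benjamini-Hochberg adjustment over all 13538 genes. The fit was tested on simulated reads with the same preset spread for every gene, which was not taken from these libraries. It recovered 40% of 1.25-fold and 90% of 1.5-fold changes. Nfix and Nfic, with cKO means at 116% and 88.7% of control, changed by less than 1.25-fold. Ratios used exact permutation tests in SciPy 1.17.1.

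Members and the 14 gene lists (156 entries, all matched by symbol) were chosen with earlier results of these data known. Text names members, overlapping genes, genes most like a called member, genes of the granule neuron target and regulator lists, and up to 4 genes of each other list, the glial targets among them (called, smallest p, else most abundant). Atoh1, Xist, Ddx3y, Slc1a3, Fabp7, Nrxn3 and Chl1 fall outside that rule and were added after their values were seen. Of 29560 genes shared with the GRCm38 annotation 614 matched in both coordinates, and the build of the table's positions is not stated. Alternatives were other pseudocounts, filters and scalings, removal of a gene length trend, array weights, a replicate block, voom with TMM factors (coded from its formula) on the recovered reads, and leaving out each library.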

Additional observations from a re-analysis of the deposited data

How the results depend on the processing

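Log2 differences are cKO minus control. The rise of Nfix (0.21) missed the threshold at 0.21 with no filter on low values, with no intensity trend and with a replicate block (adjusted p of 0.12, 0.059 and 0.094), and at 0.13 with the gene length trend removed (adjusted p of 0.19). Leaving out 1 library gave 0.17 to 0.27, past the threshold in 1 of 6 cases. Nfic (-0.16) became a call at -0.19 with array weights, -0.24 with the length trend removed and -0.21 with voom, and leaving out 1 library gave -0.20 to -0.10 (the last without control replicate 3). Nfia (-0.02) changed sign to 0.021 with TPM scaling and ranged from -0.079 to 0.025 over the libraries left out. Nfib (0.01) changed sign to -0.080 with the length trend removed and -0.029 with voom, and ranged from -0.047 to 0.045 over the libraries left out. Znhit3 stayed past the threshold in all 19, from -1.11 to -0.89.

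The count of genes called, 2590, was 1271 with no filter, 1542 with the replicate block, and 1207 to 2195 with 1 library left out (1207 without cKO replicate 2, 1553 without cKO replicate 3, 1331 without control replicate 2 and 1490 without control replicate 3). It was 2997 with TPM scaling, 81.7% of them higher, against 70.0% in the reported fit, 56.8% after quantile normalization, 48.4% with the length trend removed and 54.2% with voom. Same-numbered libraries were not paired by the labels, and their deviations correlated at -0.02, 0.04 and -0.10, so the block shares only a number. It changed no call among the members other than Nfix, and among the listed genes named here it ended those of Efnb1, Sox9, Nfatc1 and Nfatc4 (adjusted p of 0.066, 0.056, 0.069 and 0.061).

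Each of the 6 ratios kept its sign under all 13 settings run for it. Settings that only rescale a library could hardly change a ratio. The length trend and voom settings of the ratios, and all settings of the listed genes, were added after seeing the data. Among listed genes that were not called, Grin2c changed sign to 0.032 with TPM scaling, and ranged from -0.038 to 0.026 without 1 library. Nfatc3 changed sign to -0.061 with quantile normalization, -0.081 with the length trend removed and -0.022 with voom, and ranged from -0.0026 to 0.036 without 1 library. Fabp7 changed sign to 0.0031 with quantile normalization. Cntn2 and Efnb1 stayed negative in all 19 and were called in 19 and 13, and Gfap, Aqp4, Apcdd1 and Mmd2 were called in all 19. The cause of these dependences was not tested. Depth did not limit the members, whereas Gabra6 was too low to compare.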
